A study of Mus musculus with 8 samples.

Results

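The genes described are 10 genes of the transforming growth factor beta (TGF-β) pathway: Tgfb1, Tgfb3, Tgfbr1, Tgfbr2, Smad2, Smad3, Smad4, Smad7, Ski and Skil. They were taken by symbol, with every probe set (a group of short array probes for the same transcript) that the array annotation gives to 1 of these symbols and no other. This gave 23 probe sets of 45037 tested, and 10 genes of 18193. Tgfbr1, Tgfbr2, Smad3 and Smad4 had 3 probe sets each, Tgfb1, Smad2, Smad7, Ski and Skil 2 each, and Tgfb3 had 1. RNA was measured on 8 Affymetrix arrays of C57BL/6 mouse CD4 T cells, sorted as naive cells, activated through CD3 and CD28 and kept under Th17-polarising conditions for 48 h. Wildtype and RORγt-deficient cells were each treated with DMSO, the vehicle, or with digoxin, and each of these 4 groups had 2 arrays. RORγt is a nuclear receptor required for the Th17 fate, and digoxin is a cardiac glycoside. Neither its dose nor how RORγt was lost is given in the sources used here. The titles number biological replicates without saying what separates them, so p-values measure only how far these arrays spread, some of which may be technical.

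TGF-β is the cytokine that, together with IL-6, turns an activated naive CD4 T cell towards the Th17 fate, while TGF-β alone favours regulatory T cells. The ligand binds TGFBR2, which recruits and phosphorylates TGFBR1. That kinase phosphorylates SMAD2 and SMAD3, which enter the nucleus with SMAD4, while SMAD7 blocks the receptor and SKI and SKIL hold SMAD complexes in a repressed state.

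The array gives no promoter activity, but the promoters of these genes were searched for short motifs linked to the pathway and to the receptor. RefSeq windows of 300 bases on GRCm38.p6, with 250 bases before a transcription start and 50 after it, were found for 5 of the 10 genes, with 2 for Tgfbr1 and 1 each for Tgfb1, Tgfbr2, Smad3 and Ski. CAGACA, which holds the SMAD-binding core, matched on either strand in 1 of these 6 windows and in 21% of 32851 windows of all genes. The single match lay 203 bases before the downstream start of Tgfbr1, and it is printed here with the motif in capitals (GRCm38.p6, chr4:47386001-47386030, plus strand).
Tgfbr1: tttcgaactcagCAGACAgccccacggtcc
The palindrome GTCTAGAC, 2 such cores facing each other, was in 0 of the 6 windows and in 0.213% of all windows. AGGTCA, the half-site that ROR receptors bind, was in 0 of the 6 and in 16.3% of all windows. A match says only that these letters stand in the window.

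Every array value is a log2 level less the wildtype DMSO mean of its probe set, so that group averages 0. The lowest array level before this subtraction, read from the binary step of the deposited numbers, was 8 or above on the log2 scale for 12 of the 23 probe sets, between 4 and 8 for 8 and between 2 and 4 for 3. These ranges describe each probe set alone, since levels of different probes are not comparable as amounts of transcript. That limit holds for the marker levels below too, which do not measure the share of any cell type. The 3 in the lowest range were 1420894_at of Tgfbr1 and 1422019_at and 1425444_a_at of Tgfbr2. Of the fixed cell markers, all 7 probe sets of the CD4 T cell genes Cd3e, Cd3d, Cd4, Cd5 and Cd28 stood at 8 or above. None of the 21 probe sets of CD8 T, B, myeloid, NK cell and platelet markers did, and none was called in a comparison. Summed marker values moved between groups, although neither these nor the CD4 T cell probe sets were called. The summed values of the 7 CD4 T cell probe sets ran from -0.54 to 0.54 on the wildtype DMSO arrays, 0.78 to 0.94 under digoxin, 1.56 to 1.72 in deficient DMSO cells and 1.51 to 1.68 with both. Those of the 6 CD8 T cell probe sets ran from -0.42 to 0.42, -0.02 to 0.43, 0.82 to 0.87 and 0.69 to 1.24 in the same order of groups. Those of the 4 B cell probe sets ran from -0.31 to 0.31, 0.03 to 1.05, 0.25 to 0.52 and 0.72 to 0.84. T cell marker sums were thus highest in deficient cells. Those of the 7 myeloid probe sets (Cd14, Csf1r, Itgam, Lyz2 and Adgre1) ran from -0.11 to 0.11, 0.39 to 1.51, -0.14 to 0.48 and 0.50 to 1.99, with digoxin arrays above the DMSO arrays of their genotype. Not all members of that list did so: under digoxin in wildtype cells Lyz2 stood at -0.11 and Itgam at -0.04. The NK cell and platelet sums stayed between -0.14 and 0.37. Il17a, the signature Th17 cytokine gene, was lower by 2.11 ± 0.12 (SE, n = 2 arrays per group) in the deficient DMSO cells. Digoxin gave -2.39 for Il17a in wildtype cells and -1.88 in deficient cells. The other fixed Th17 markers were Ccr6, Ccl20 and Il1r1, none of them called. For deficiency in DMSO they stood at -0.71, -0.30, and -0.19 and -0.04. Digoxin gave -0.85, -0.36, and -0.21 and -0.11 in wildtype cells, and -0.41, -0.23, and 0.08 and 0.13 in deficient cells. RORγt's own transcript was not analysed here and gives no check of the genotype labels.

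None of the 23 probe sets passed the test in any of the 5 comparisons. The test was limma over all 45037 probe sets with Benjamini-Hochberg adjustment, and a probe set was called at an adjusted p under 0.05. For RORγt deficiency in DMSO 0.611% of all probe sets were called, for digoxin in wildtype cells 0.0622%, for digoxin in RORγt-deficient cells and for RORγt deficiency under digoxin 0.00222% each, and for the difference between the digoxin effects 0%. The count of 0 is near these shares and says little about the members. At an unadjusted p under 0.05, 1 probe set stood out for deficiency in DMSO against 9.06% of all, 2 for digoxin in wildtype cells against 6.26%, 0 for digoxin in deficient cells against 3.41%, 1 for deficiency under digoxin against 4.77% and 0 for the difference against 2.78%.

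The median standard error of a difference between groups was 0.12 on the log2 scale for these probe sets. For deficiency in DMSO the 95% interval lay within a 2-fold change in either direction for all 23 probe sets, and within a 1.5-fold change for 19. For digoxin the same held for 23 and 21 in wildtype cells and for 23 and 22 in deficient cells. A change of 2-fold in the array signal was therefore outside the interval of each probe set in these 3 comparisons. For 4, 2 and 1 probe sets respectively the interval still held changes above 1.5-fold. The intervals bound the signal only. How closely it follows the transcript was not tested, including for the 3 probe sets in the lowest level range.

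**Figure D1:**
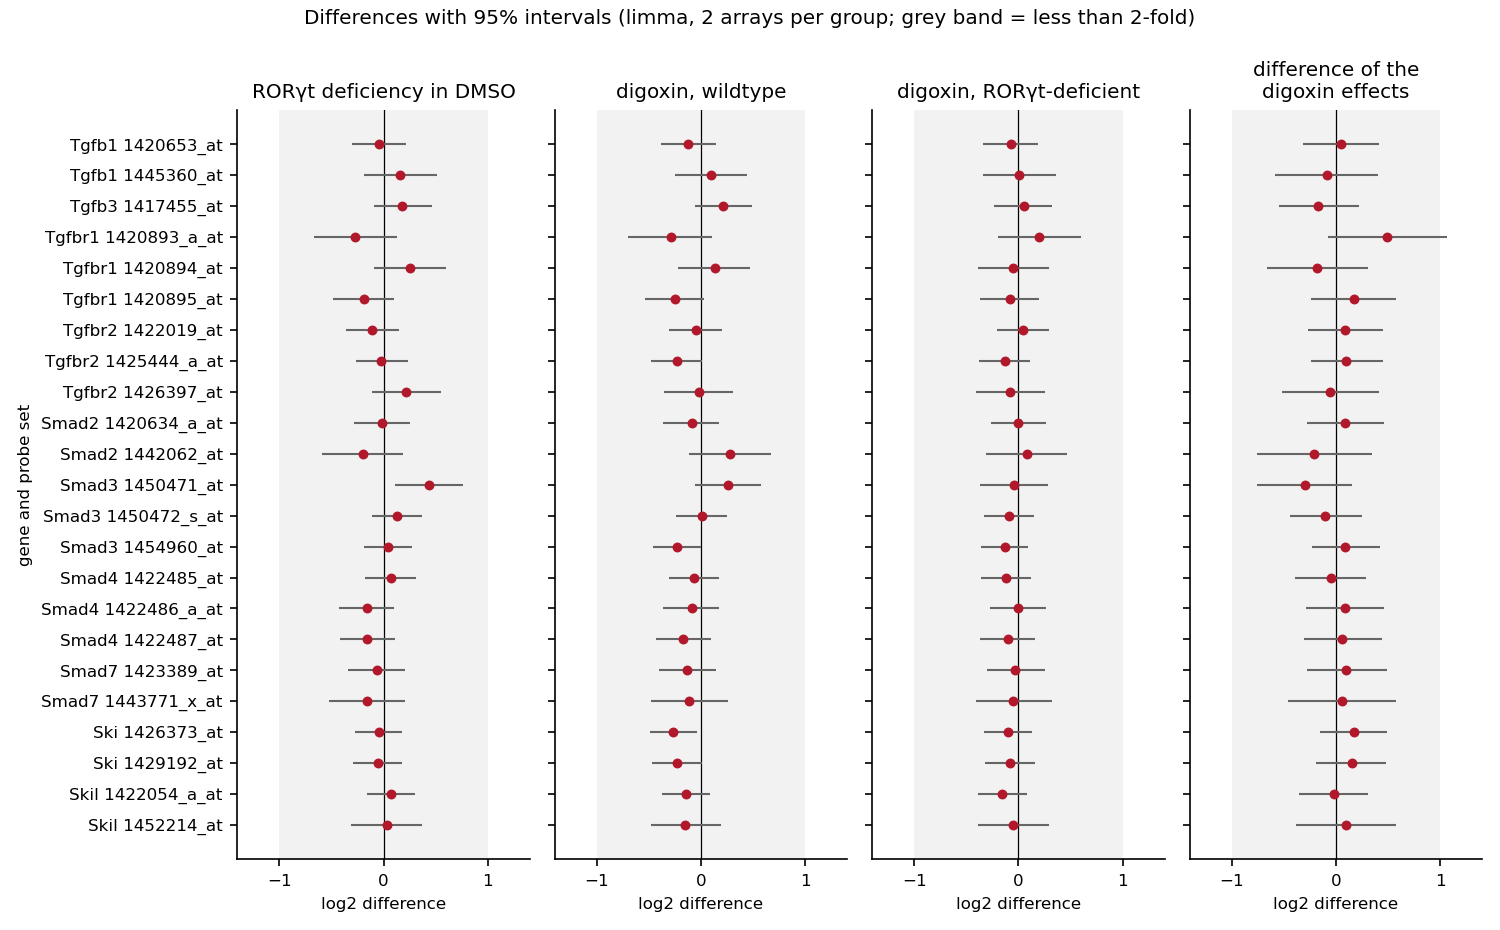
Log2 difference (points) with its 95% limma interval (lines) for each of the 23 probe sets in 4 comparisons, with 2 arrays per group; the grey band marks changes under 2-fold. All intervals but that of Tgfbr1 1420893_a_at in the difference of the digoxin effects, which reaches 1.06, lie inside the band.

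The ligand genes differed little between groups. Tgfb1, the main TGF-β of lymphocytes, had values of -0.01 and 0.01 in wildtype DMSO cells, -0.01 and -0.23 in their digoxin counterparts, 0.01 and -0.08 in deficient DMSO and -0.05 and -0.17 in deficient digoxin cells by its probe set 1420653_at, whose level was 8 or above. Neither deficiency in DMSO nor digoxin in wildtype cells separated the groups without overlap. The differences were -0.04 ± 0.12 for deficiency in DMSO (95% interval -0.30 to 0.22) and -0.12 ± 0.12 for digoxin in wildtype cells (-0.38 to 0.14). The other Tgfb1 probe set, 1445360_at, was noisier, with wildtype DMSO arrays at 0.23 and -0.23, and stood at 0.16 ± 0.16 and 0.10 ± 0.16.

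Tgfb3, the isoform known for its link to pathogenic Th17 cells, was above both wildtype DMSO arrays (0.03 and -0.03) on all 6 other arrays. Its values were 0.30 and 0.13 in wildtype digoxin, 0.09 and 0.28 in deficient DMSO and 0.15 and 0.31 in deficient digoxin cells. The wildtype DMSO group did not overlap either single-factor group, which was also the case, in the higher direction, for 20.2% of all probe sets in deficiency and 18.7% under digoxin. The differences were 0.18 ± 0.12 for deficiency (interval -0.09 to 0.46, adjusted p = 0.716) and 0.21 ± 0.12 for digoxin in wildtype cells (-0.06 to 0.49, adjusted p = 0.807). These comparisons share the wildtype DMSO arrays. In deficient cells digoxin gave 0.05 ± 0.12 (-0.23 to 0.32).

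The 3 probe sets of Tgfbr1, the signalling kinase of the receptor, did not point one way. The one above 0 for deficiency, 1420894_at, was in the lowest level range, while the others had levels between 4 and 8. For deficiency in DMSO the 3 stood at -0.27 ± 0.18 (1420893_a_at), 0.25 ± 0.15 (1420894_at) and -0.19 ± 0.13 (1420895_at), with adjusted p from 0.677 to 0.723. The first of these had deficient DMSO arrays far apart, at 0.04 and -0.58, against 0.11 and -0.11 in wildtype DMSO. It also had the largest difference between the digoxin effects of the 23 probe sets. Digoxin gave -0.29 ± 0.18 in wildtype cells, where both arrays (-0.32 and -0.27) lay below both DMSO arrays, and 0.20 ± 0.18 in deficient cells, where they (-0.10 and -0.04) lay between the DMSO arrays. That difference was 0.49 ± 0.25 (interval -0.08 to 1.06, unadjusted p = 0.0819) and was not called.

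Tgfbr2, the ligand-binding receptor chain, was likewise not called by any of its probe sets. By 1426397_at it had values of -0.03 and 0.03 in wildtype DMSO cells, 0.10 and -0.14 in their digoxin counterparts, 0.33 and 0.11 in deficient DMSO and 0.31 and -0.03 in deficient digoxin cells. Deficient DMSO cells were thus above wildtype DMSO cells on both arrays, by 0.22 ± 0.15 (interval -0.11 to 0.55). The other probe sets stood at -0.11 ± 0.11 and -0.02 ± 0.11. Under digoxin in wildtype cells the 3 stood at -0.05 ± 0.11 (1422019_at), -0.23 ± 0.11 (1425444_a_at) and -0.02 ± 0.15 (1426397_at).

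Smad2 and Smad3 encode the SMADs that the receptor phosphorylates. For Smad2 the probe set 1420634_a_at, of level 8 or above, gave -0.01 ± 0.12 for deficiency in DMSO (interval -0.28 to 0.25), -0.09 ± 0.12 for digoxin in wildtype cells and 0.00 ± 0.12 for digoxin in deficient cells. Its level was thus bounded within a change of 1.5-fold in each. The second probe set, 1442062_at, differed: it stood at -0.05 and 0.05 in wildtype DMSO cells, 0.29 and 0.27 in their digoxin counterparts, 0.03 and -0.43 in deficient DMSO and 0.09 and -0.34 in deficient digoxin cells. Under digoxin it was lower in deficient than in wildtype cells on both arrays, by 0.41 (-0.41 ± 0.18, interval -0.80 to -0.02, unadjusted p = 0.0429, adjusted p = 1). Without deficient digoxin replicate 2 the value was -0.19 and without replicate 1 it was -0.62.

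Smad3 held the lowest unadjusted p of the set for deficiency in DMSO, and its probe sets disagreed in size. By 1450471_at its values were -0.15 and 0.15 in wildtype DMSO cells, 0.23 and 0.30 in their digoxin counterparts, 0.27 and 0.61 in deficient DMSO and 0.36 and 0.43 in deficient digoxin cells. All 6 arrays of the other groups lay above both wildtype DMSO arrays. Separation in the higher direction held for 20.2% of all probe sets in deficiency and 18.7% for digoxin in wildtype cells. Deficiency gave 0.44 ± 0.14 (1.35-fold, interval 0.11 to 0.76, unadjusted p = 0.0131, adjusted p = 0.351). The value was 0.27 without deficient DMSO replicate 2 and 0.29 without wildtype DMSO replicate 1, the arrays on which it rested most. The other probe sets gave 0.13 ± 0.11 (1450472_s_at) and 0.04 ± 0.10 (1454960_at, of level 8 or above, interval -0.19 to 0.27).

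Under digoxin in wildtype cells the same 3 Smad3 probe sets spread from higher to lower. They stood at 0.26 ± 0.14 (1450471_at), 0.01 ± 0.11 (1450472_s_at) and -0.23 ± 0.10 (1454960_at, interval -0.46 to 0.00, unadjusted p = 0.049, adjusted p = 0.794). The last had digoxin values of -0.20 and -0.26 against 0.02 and -0.02 in DMSO, without overlap, and in deficient cells -0.10 and -0.09 against 0.01 and 0.07. Of all probe sets 17.9% and 11.7% separated in this way. No direction for Smad3 as a gene follows from probe sets that differ in this way, and the annotation used here does not say which part of the transcript each one reads.

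Smad4, the partner shared by all signalling SMADs, was measured by 3 probe sets of level 8 or above. For deficiency in DMSO they gave 0.07 ± 0.11 (1422485_at), -0.16 ± 0.12 (1422486_a_at) and -0.16 ± 0.12 (1422487_at). For digoxin in wildtype cells they gave -0.07 ± 0.11, -0.09 ± 0.12 and -0.17 ± 0.12, and in deficient cells -0.12 ± 0.11, 0.00 ± 0.12 and -0.10 ± 0.12. The lowest values were those of 1422487_at, at -0.07 and -0.26 in wildtype digoxin, -0.07 and -0.25 in deficient DMSO and -0.21 and -0.31 in deficient digoxin cells, all below the wildtype DMSO arrays at 0.04 and -0.04. Separation in the lower direction held for 20.1% of all probe sets in deficiency and 17.9% for digoxin in wildtype cells. None of the Smad4 probe sets was called.

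Smad7, the inhibitory SMAD and itself a gene that TGF-β signalling switches on, stayed within narrow bounds by its probe set 1423389_at. Its values were 0.13 and -0.13 in wildtype DMSO cells, -0.05 and -0.22 in their digoxin counterparts, -0.05 and -0.08 in deficient DMSO and -0.11 and -0.07 in deficient digoxin cells. The wildtype DMSO arrays spanned most of the others. Deficiency gave -0.06 ± 0.12 (interval -0.34 to 0.21), digoxin in wildtype cells -0.13 ± 0.12 (-0.40 to 0.14) and digoxin in deficient cells -0.03 ± 0.12 (-0.30 to 0.25). The second probe set, 1443771_x_at, gave -0.16 ± 0.16, -0.11 ± 0.16 and -0.05 ± 0.16.

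Ski, a nuclear co-repressor of SMAD complexes, was the member whose probe sets gave the most similar picture. By 1426373_at its values were 0.02 and -0.02 in wildtype DMSO cells, -0.25 and -0.29 in their digoxin counterparts, -0.07 and -0.02 in deficient DMSO and -0.14 and -0.15 in deficient digoxin cells. By 1429192_at they were 0.06 and -0.06, -0.19 and -0.27, -0.05 and -0.06, and -0.18 and -0.09 in the same order. By both, each digoxin array lay below each DMSO array of its genotype. Such separation held for 17.9% of all probe sets in wildtype cells, 11.7% in deficient cells and 3.71% in both.

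Digoxin in wildtype cells gave -0.27 ± 0.10 for Ski by 1426373_at (1.20-fold lower, interval -0.49 to -0.04, unadjusted p = 0.0245, adjusted p = 0.738) and -0.23 ± 0.11 by 1429192_at (-0.47 to 0.01, adjusted p = 0.794). Neither was called. In deficient cells digoxin gave -0.10 ± 0.10 and -0.08 ± 0.11, and the differences between the digoxin effects, 0.17 ± 0.14 (interval -0.15 to 0.49) and 0.15 ± 0.15 (-0.19 to 0.48), were not called. Deficiency in DMSO left Ski at -0.04 ± 0.10 and -0.05 ± 0.11. Leaving out 1 array at a time moved the digoxin value of 1426373_at between -0.29 and -0.24.

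Skil, which encodes the SKI relative SnoN and is also raised by TGF-β as a feedback inhibitor, had lower digoxin values by 1422054_a_at. They were -0.15 and -0.13 against 0.04 and -0.04 in wildtype cells, and -0.04 and -0.12 against 0.11 and 0.04 in deficient cells, without overlap in either genotype. Of all probe sets 3.71% separated in the lower direction in both genotypes. The differences were -0.14 ± 0.10 (interval -0.37 to 0.09) and -0.16 ± 0.10 (-0.39 to 0.08), and neither was called. By 1452214_at the wildtype digoxin arrays stood at -0.38 and 0.09, and the difference of -0.15 ± 0.15 rested on the lower array.

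**Figure D2:**
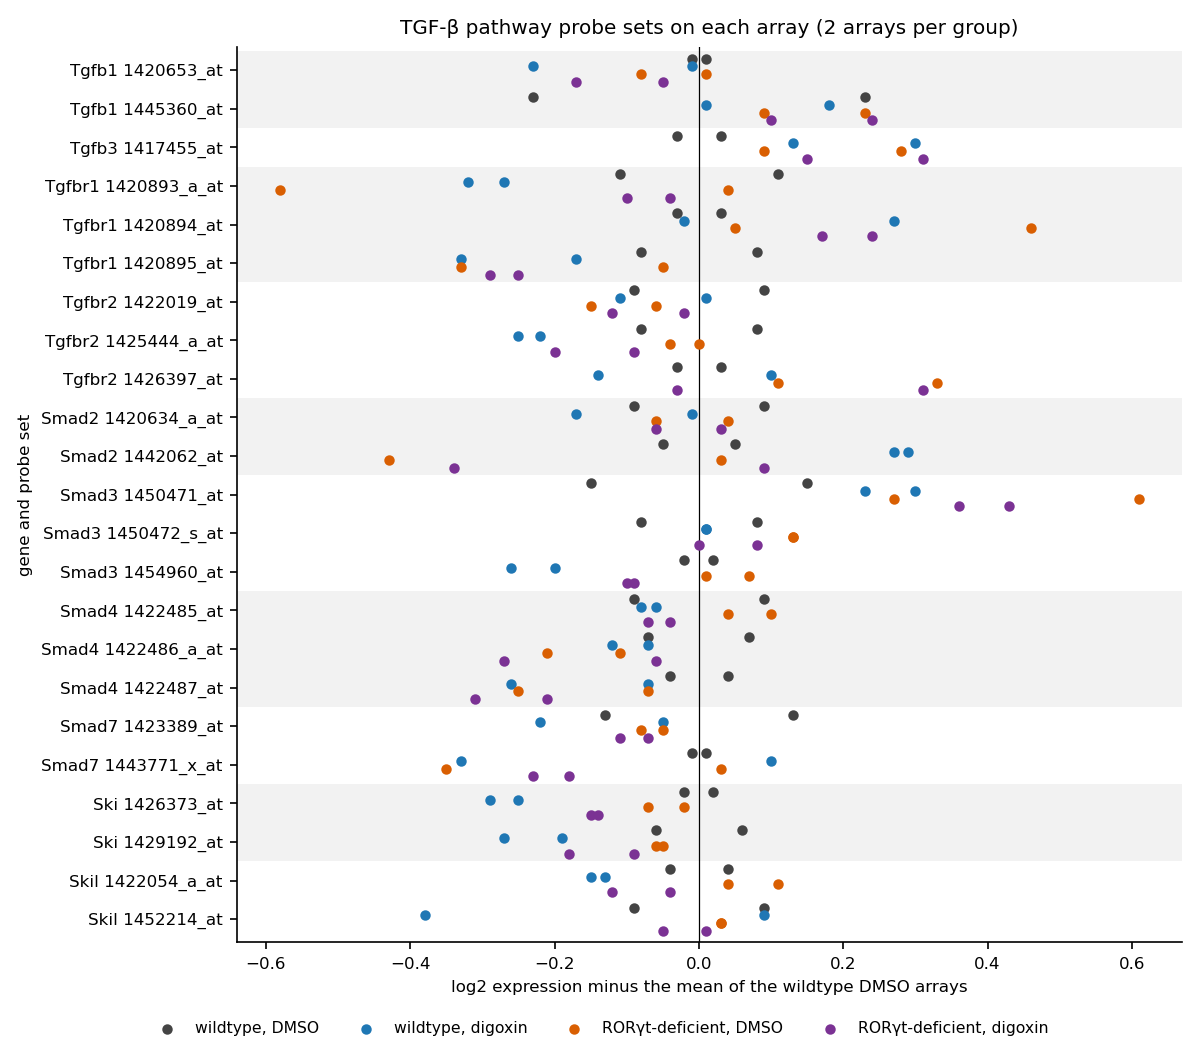
Log2 value of each of the 23 probe sets on each of the 8 arrays, relative to the wildtype DMSO mean (x axis), with 2 points per group. Both Ski probe sets show the digoxin arrays below the DMSO arrays of the same genotype, while the 3 Tgfbr1 and the 3 Smad3 probe sets spread to both sides of 0.

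Across the 23 probe sets digoxin values leaned to the low side in each genotype, by small amounts. The median difference was -0.11 in wildtype cells and -0.05 in deficient cells, against 0.01 for all probe sets in both. In wildtype cells 17 of the 23 lay below 0 and in deficient cells 17 did too. The groups did not overlap, in the lower direction, for 8 of 23 probe sets (34.8%) in wildtype cells, against 17.9% of all probe sets. In deficient cells they did not overlap for 8 (34.8%), against 11.7%. In the higher direction the counts were 3 (13%) against 18.7% and 0 against 16.5%. The lean was not particular to these genes. Other SMADs, ubiquitin ligases, phosphatases and co-repressors, a list described below, had medians of -0.12 and -0.06. Of that list 72.1% and 63.2% lay below 0, and 45.6% and 14.7% separated in the lower direction. Medians of the remaining lists ran from -0.03 to 0.11 in wildtype cells and from -0.05 to 0.02 in deficient cells.

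The digoxin comparisons of the genotypes use no array in common. Both values were below 0 for 14 of the 23 probe sets (60.9%), against 26.4% of all 45037. Both separated the groups in the lower direction for 5 (21.7%), against 3.71%. These 5 were both probe sets of Ski and 1 each of Skil, Tgfbr2 (1425444_a_at) and Smad3 (1454960_at). The Tgfbr2 one was in the lowest level range. Its probe set of level 8 or above, 1426397_at, gave -0.02 in wildtype and -0.08 in deficient cells, without separation, and 1422019_at gave -0.05 and 0.04. The other Smad3 probe sets gave 0.26 and 0.01 in wildtype cells and -0.04 and -0.09 in deficient cells. The 14 also held all probe sets of Smad4, Smad7 and Skil. Probe sets of a gene are not independent, and these counts describe the members without a test. The members also differ in level from all probe sets. Their lowest level was 8 or above for 52.2%, against 18% of all, and between 2 and 4 for 13%, against 35.2%. Whether probe sets of higher level lean low under digoxin in general was not tested. The wildtype median stayed between -0.16 and -0.05 in all alternatives run and the deficient one between -0.10 and -0.03; the wildtype one was -0.05 without wildtype DMSO replicate 1, -0.06 without wildtype digoxin replicate 2 and -0.06 with 1 probe set per gene. The deficient one was -0.10 without deficient digoxin replicate 1, -0.09 without deficient DMSO replicate 2 and -0.03 without deficient DMSO replicate 1. The marker sums given above also moved between these groups, and their part in these medians was not tested.

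Deficiency in DMSO showed no lean: 13 of 23 values lay below 0 and 10 above, with a median of -0.02, which was 0.06 without wildtype DMSO replicate 1 and 0.03 without deficient DMSO replicate 2. The groups did not overlap for 5 probe sets in the higher direction (21.7%, against 20.2% of all) and 2 in the lower (8.7%, against 20.1%). Under digoxin the deficient cells had a median of 0.06 relative to wildtype cells, with 7 probe sets higher without overlap (30.4%, against 16.8%) and 1 lower (4.35%, against 13.4%). The median was 0.01 without wildtype digoxin replicate 2, 0.03 without deficient digoxin replicate 1 and 0.10 without wildtype digoxin replicate 1. That comparison shares its wildtype digoxin arrays with the digoxin comparison above.

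The wider pathway was read from 5 lists, which held 179 probe sets of 73 genes beside the 10. Of these, limma called Furin and Gzmb and no other. Among ligands, activation and ligand traps (33 probe sets of 15 genes), 1 probe set was called lower for deficiency in DMSO and 0 higher. For digoxin in wildtype cells 0 were called. Of all probe sets 0.611% and 0.0622% were called. The medians of this list were -0.01 and 0.00. At an unadjusted p under 0.05 it had 3 (9.09%, against 9.06% of all probe sets) and 3 (9.09%, against 6.26%). Among receptors and their regulators (52 probe sets of 18 genes) 0 were called in either, with medians of 0.04 and -0.02. At an unadjusted p under 0.05 there were 3 (5.77%, against 9.06% of all probe sets) and 2 (3.85%, against 6.26%).

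Furin, the protease that cuts the TGF-β precursors and many other proproteins, was the called activation gene. Its values were -0.01 and 0.01 for wildtype DMSO arrays, -0.96 and -1.26 for wildtype digoxin, -0.73 and -1.27 in deficient DMSO and -1.41 and -1.37 in deficient digoxin cells. Every array outside wildtype DMSO was far below both arrays of that group, and the lowest were those with both deficiency and drug. Furin fell by 1.00 ± 0.17 on the log2 scale in deficiency (interval -1.38 to -0.61, adjusted p = 0.0365). Digoxin in wildtype cells gave -1.11 ± 0.17 (interval -1.49 to -0.72, adjusted p = 0.079), which was not called here.

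In deficient cells Furin stood at -0.40 ± 0.17 under digoxin (interval -0.78 to -0.01, adjusted p = 1), and the difference between the digoxin effects was 0.71 ± 0.24 (0.17 to 1.25, unadjusted p = 0.0156, adjusted p = 1). The call for deficiency was lost without either wildtype DMSO array, without deficient DMSO replicate 2 and without either deficient digoxin array, with values from -1.27 to -0.73 over all arrays left out. It was also lost after quantile normalization, at -0.81, and when the fit held no other groups. That normalization was run on values already centred on wildtype DMSO and gives all arrays the same spread. Before it, the standard deviation was 0.09 on both wildtype DMSO arrays and 0.17 to 0.28 on the others, so this loss says little about stability. Tgfb1 and Tgfb3, whose products furin-type proteases process, gave the values above.

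Inhba, which encodes the activin βA chain, stood at 0.58 ± 0.14 by 1422053_at for deficiency (interval 0.28 to 0.89, adjusted p = 0.135) and at -0.09 ± 0.13 by 1458291_at. Itgav, the αV integrin chain that can release TGF-β from its latent form, ranged from -0.05 to 0.29 over 5 probe sets, and Ltbp3, a latent TGF-β binding protein gene, from -0.27 to -0.02 over 4. Among the receptors, Zfyve9, the SMAD anchor SARA, stood at 0.38 ± 0.13 (adjusted p = 0.364) and Tgfbr3, the co-receptor betaglycan, at 0.33 ± 0.14 and 0.18 ± 0.12. Eng, the co-receptor endoglin, stood at 0.29 ± 0.12 and 0.08 ± 0.13, and Bambi, a pseudoreceptor that blocks signalling, at -0.27 ± 0.13. None of these was called.

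Other SMADs, ubiquitin ligases, phosphatases and co-repressors (68 probe sets of 22 genes) had 0 called in either comparison. Their medians were -0.07 for deficiency and -0.12 for digoxin in wildtype cells, with 8 (11.8%, against 9.06% of all probe sets) and 11 (16.2%, against 6.26%) at an unadjusted p under 0.05. Groups did not overlap, in the lower direction, for 23 (33.8%, against 20.1%) and 31 (45.6%, against 17.9%), the latter a larger share than among the members. Ppm1a, a phosphatase reported to act on SMAD2 and SMAD3, stood at -0.78 ± 0.17 by 1429501_s_at for deficiency (interval -1.16 to -0.40, adjusted p = 0.1), and at 0.13 ± 0.11 by 1415678_at. Its 8 probe sets ranged from -0.78 to 0.13 for deficiency. For digoxin in wildtype cells, a comparison that shares the wildtype DMSO arrays, they ranged from -0.58 (1429501_s_at) to 0.09 (1415678_at). Usp15, a deubiquitinase that stabilises the receptor, had its lowest value at -0.53 ± 0.17 by 1436891_at, of the lowest level range. Its other probe sets ranged from -0.26 to -0.02, with -0.05 ± 0.11 by 1454036_a_at, of level 8 or above. Digoxin in wildtype cells gave -0.33 ± 0.17 by 1436891_at and 0.03 ± 0.11 by 1454036_a_at. Sin3a, a co-repressor scaffold, stood lowest for deficiency at -0.39 ± 0.13 by 1419102_at, with -0.14 ± 0.12 (1419101_at) and -0.20 ± 0.12 (1449343_s_at) by the others. Digoxin in wildtype cells gave -0.34 ± 0.13, -0.17 ± 0.12 and -0.16 ± 0.12 in the same order. Tgif1, a SMAD co-repressor and TGF-β-induced gene, stood at -0.27 ± 0.10 for deficiency and -0.24 ± 0.10 for digoxin by 1422286_a_at.

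Genes that TGF-β is known to raise (24 probe sets of 12 genes) had 0 called for deficiency or digoxin, with medians of 0.06 and -0.03. At an unadjusted p under 0.05 there were 4 (16.7%, against 9.06% of all probe sets) and 3 (12.5%, against 6.26%). The lowest p belonged to Cdkn1a, which encodes the cell cycle inhibitor p21 and is also a p53 target: under digoxin it was at 0.45 ± 0.11 in deficient relative to wildtype cells by 1424638_at (unadjusted p = 0.00256, adjusted p = 0.607). By 1421679_a_at the value there was 0.38 ± 0.17. Deficiency in DMSO gave 0.30 ± 0.11 and 0.55 ± 0.17 by these probe sets in turn. Digoxin in wildtype cells gave -0.11 ± 0.11 and -0.01 ± 0.17. Id1, an inhibitor of DNA binding whose direction under TGF-β varies between cell types, stood at -0.35 ± 0.11 for deficiency and -0.35 ± 0.11 for digoxin in wildtype cells. Ldlrad4, a feedback inhibitor of SMAD phosphorylation, ranged from -0.15 to 0.27 for deficiency over 4 probe sets.

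Genes that TGF-β is known to lower in T cells (13 probe sets of 10 genes) had 1 called higher in deficiency and 1 in digoxin, both of them Gzmb, with medians of 0.24 and 0.11. Of all probe sets 0.611% and 0.0622% were called. At an unadjusted p under 0.05 there were 5 (38.5%, against 9.06% of all) and 5 (38.5%, against 6.26%). Groups did not overlap, in the higher direction, for 7 (53.8%, against 20.2%) and 4 (30.8%, against 18.7%). In the lower direction the counts were 2 (15.4%, against 20.1%) and 1 (7.69%, against 17.9%). Gzmb encodes the cytotoxic protease granzyme B. Its values were 0.03 and -0.03 in wildtype DMSO cells, 0.89 and 0.78 in their digoxin counterparts, 1.02 and 1.09 in deficient DMSO and 1.38 and 1.21 in deficient digoxin cells. No groups overlapped, and those with both deficiency and drug stood highest.

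Gzmb rose by 1.05 ± 0.11 in deficiency (interval 0.81 to 1.30, adjusted p = 0.00534) and by 0.83 ± 0.11 under digoxin in wildtype cells (0.59 to 1.08, adjusted p = 0.0409). Under digoxin, deficient cells stood 0.46 ± 0.11 above wildtype cells (adjusted p = 0.59), and the difference between the digoxin effects was -0.60 ± 0.16 (interval -0.95 to -0.24, unadjusted p = 0.0037, adjusted p = 1). The digoxin call was lost without each of the 8 arrays in turn, with values from 0.78 to 0.89, after quantile normalization, at 0.75, and when the fit held no other groups. The deficiency call was lost without either wildtype DMSO array, without deficient DMSO replicate 2 and after quantile normalization, at 0.87. The limit given above for quantile normalization of centred values holds for both calls.

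Not all of that list pointed the same way. Il2, the T cell growth factor gene, was on the low side, with values of -0.55 and -0.72 in wildtype digoxin and -0.49 and -0.51 in deficient DMSO against -0.02 and 0.02 in wildtype DMSO. It stood at -0.50 ± 0.11 for deficiency (adjusted p = 0.1) and -0.64 ± 0.11 for digoxin (adjusted p = 0.101). Tbx21, the Th1 regulator gene, stood at 0.32 ± 0.10 and 0.35 ± 0.10. Prf1, which encodes perforin, stood at 0.32 ± 0.11 and 0.11 ± 0.11 by 1451862_a_at and at 0.51 ± 0.27 and 0.25 ± 0.27 by 1450335_at. None of these was called.

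**Figure D3:**
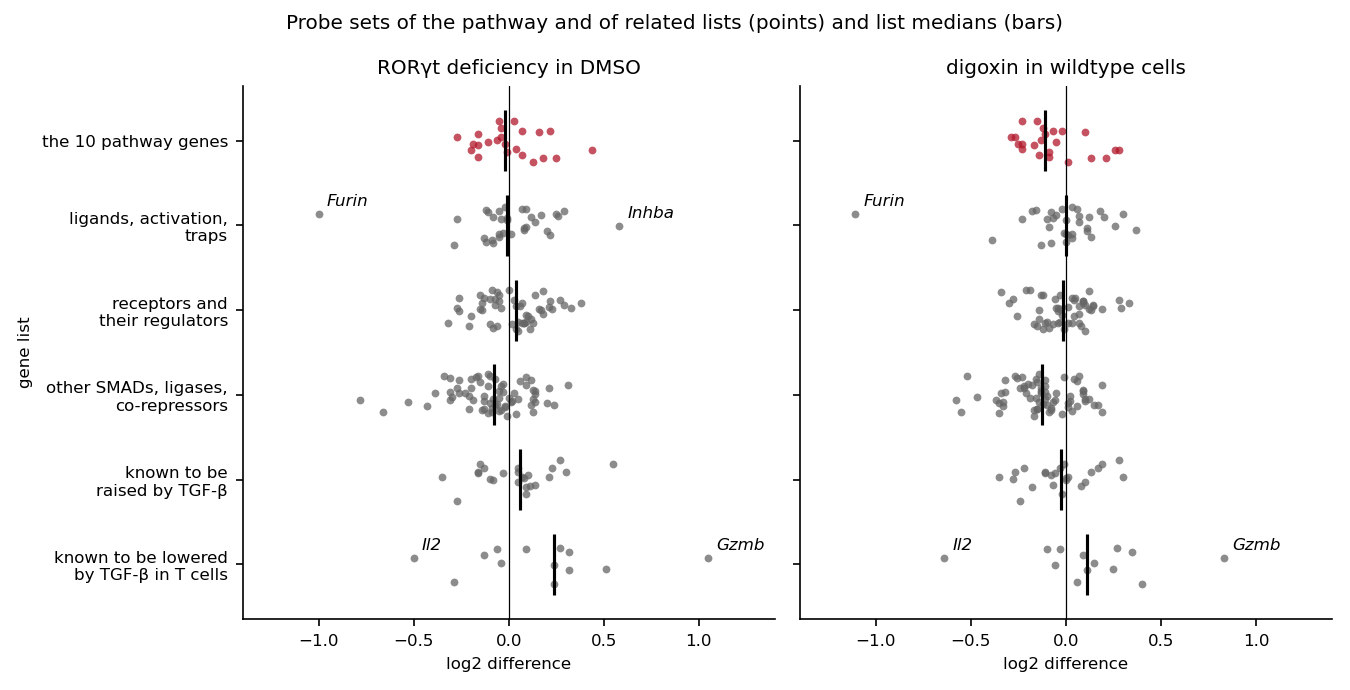
Log2 differences (x axis) of the 23 probe sets of the 10 genes (red) and of the probe sets of 5 related lists (grey), with list medians as bars; the panels share the wildtype DMSO arrays. The 10 genes lie between -0.27 and 0.44 for deficiency and between -0.29 and 0.28 for digoxin, while Furin and Gzmb lie near or beyond a 2-fold change.

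**Figure D4:**
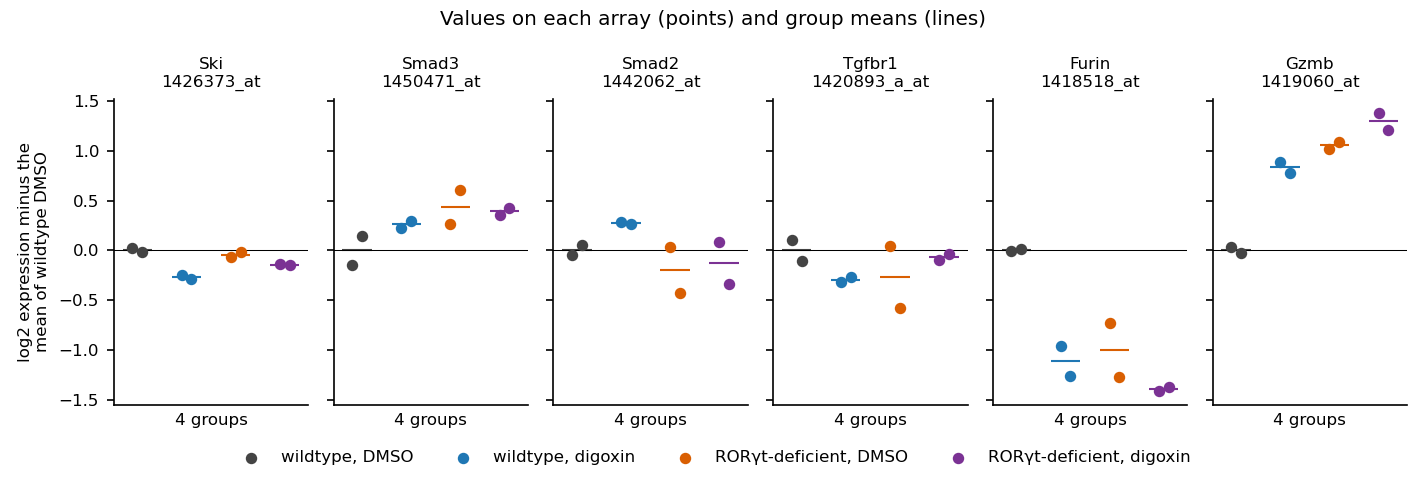
Log2 values on each array (points) and group means (lines) for 4 member probe sets and for Furin and Gzmb, relative to the wildtype DMSO mean, with 2 arrays per group. Ski shows its lowest values in wildtype digoxin cells, Smad2 and Tgfbr1 have deficient DMSO arrays far apart, and Furin and Gzmb separate wildtype DMSO from the other groups.

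Since no member was called, the genes most alike in pattern were taken for the member probe set with the lowest p, 1450471_at of Smad3. Over the 8 arrays and 18192 other genes the highest Pearson correlations were those of Zfp626 (r = 0.983), Araf (0.978) and Crb3 (0.978), with differences for deficiency in DMSO of 0.26, 0.18 and 0.29. High values of r are common among so many genes over 8 arrays in 4 groups, and the arrays share their normalisation.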

How the data were processed

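Per the labels and the submitters' processing notes, the authors summarised Affymetrix Mouse Genome arrays by RMA (background correction, quantile normalisation, log2 summary); the design text names GeneSpring for analysis. The deposited log2 values of 45101 probe sets are centred: the 2 wildtype DMSO arrays sum to 0 within 1e-06, a step no label records. Tests used only differences; of the level before centring, only a range for the lowest array was read from the binary step of the numbers. Leaving out 64 control probe sets, all 45037 were fitted with limma 3.58.1 in R 4.3.3, with 4 group means over 8 arrays, 4 residual and 5.8 prior degrees of freedom and Benjamini-Hochberg adjustment within each of 5 comparisons. The script was tested on simulated data. Errors given with ± are standard errors from limma (n = 2 arrays in each group). The annotation gave 1 symbol to 34945 probe sets, several to 932 and none to 9160; only the first kind were named. The lists beside the members gave 179 probe sets of 73 genes used here. Of each list, called genes and up to 4 genes by smallest adjusted p, then p, were named. The members and lists were chosen with earlier results of these data known. Array number limits the precision.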

Additional observations from a re-analysis of the deposited data

How the results depend on the processing

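The count of member probe sets called was 0 in each of the 5 comparisons as reported and in all 84 combinations of comparison and alternative that were run, including each array left out in turn (0 to 0), quantile normalization, array median centring, array weights, robust eBayes, 1 probe set per gene, probe sets of level 4 or above, an adjusted p under 0.1 and only the compared groups. With so few calls over all probe sets under most of these, that count says little about stability. The count over all probe sets moved far more: for deficiency in DMSO it was 275, 21 to 318 with 1 array left out (25 and 21 without wildtype DMSO replicate 1 or 2, 69 and 33 without deficient DMSO replicate 1 or 2, 121 without either deficient digoxin array), 5 after quantile normalization, 447 at an adjusted p under 0.1 and 81 with only the compared groups. For digoxin in wildtype cells it was 28, 3 to 25 with 1 array left out (3 and 7 without wildtype DMSO replicate 1 or 2, 13 and 16 without wildtype digoxin replicate 1 or 2), 5 after quantile normalization, 70 at 0.1 and 15 with only the compared groups. The counts after quantile normalization say little, since that step gives the centred wildtype DMSO arrays the wider spread of the others. The titles share replicate numbers; with the replicate number as a block, 0 member probe sets were called in each comparison, and 308 and 36 of all. Correlations of same-numbered deviations ran from -0.24 to -0.13 between wildtype DMSO and the other groups. Among those other groups they ran from 0.30 to 0.46. The sign of these correlations, taken over all probe sets, thus differed between groups, and the numbers were not taken as pairs. Over the members alone, the median was lower on replicate 2 than on replicate 1 in each group. For replicates 1 and 2 it was 0.04 and -0.04 in wildtype DMSO and -0.06 and -0.14 in wildtype digoxin cells. In deficient cells it was 0.03 and -0.04 in DMSO and -0.05 and -0.09 under digoxin. What the arrays of the other groups share by number was not tested.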
